A study of Mus musculus with 12 samples.

Results

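The genes described here encode the cytokine TNF, its relatives lymphotoxin alpha and beta, and 3 receptors of the TNF receptor superfamily. The others encode 3 regulators of the transcription factor NF-kB and 1 of its subunits. The 10 genes are Tnf, Lta, Ltb, Tnfrsf1a, Tnfrsf1b, Tnfrsf12a, Tnfaip3, Nfkbia, Nfkbiz and Relb. Members were the probe sets that the platform annotation pairs with exactly 1 of these symbols. Each of the 10 genes had 1 such probe set, giving 10 of the 21218 probe sets with a single symbol and 10 of 18820 genes. Expression was measured on Affymetrix arrays in the proximal jejunum of 12 mice, 3 in each of 4 groups. Wild-type mice were C57BL6/J and mice lacking TLR2, a receptor for bacterial lipoproteins, were B6.129-Tlr2tm1Kir/J, in which the targeted allele is carried in every cell. In each genotype 3 mice were untreated and 3 received methotrexate, an antifolate that blocks DNA synthesis, by intraperitoneal injection for 4 days (40 mg per kg each day), with tissue taken on day 7. The labels record neither a vehicle injection nor a sampling day for the untreated mice, so drug, injection and sampling day cannot be told apart. Values are log2 signals, a change is a difference of group means on that scale, and a gene was called where limma's adjusted p over all 18820 genes was under 0.05.

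TNF is made as a membrane protein mainly by immune cells and is released by a protease. It binds the receptor TNFR1, present on most cells, and TNFR2, found chiefly on leukocytes and endothelium. Bound receptors recruit adaptors and ubiquitin enzymes that activate the IKK kinase, which marks the inhibitor IkB-alpha for destruction and frees NF-kB to enter the nucleus. NF-kB then induces its own brakes, among them IkB-alpha and the ubiquitin-editing enzyme A20. In the intestine TNF is known for driving epithelial cell death and inflammation, and the lymphotoxins for building Peyer's patches and other lymphoid tissue.

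The 250 bases before the annotated RefSeq transcription start (build GRCm38.p6) were available for 8 of the 10 genes and were searched on both strands for the NF-kB consensus motif, 10 bases long. Matches were found for 3 of the 8 genes: Nfkbia, Tnfaip3 and Ltb. The windows of Tnf, Tnfrsf1a, Tnfrsf1b and Tnfrsf12a, genes that rose in treated knockout mice, held none, and neither did that of Lta. Of 26734 genes searched in the same way, 4.48% held a match. The promoters with a match are shown because the first pair belongs to feedback inhibitors that rose in treated knockout mice and the third to a gene that did not. They are written 5′ to 3′ on the strand of the gene and end at the base before the start, with matches in capitals. Nfkbia lies on the minus strand at chr12:55492648-55492897, Tnfaip3 (the first of 2 annotated starts) on the minus strand at chr10:19015411-19015660 and Ltb on the plus strand at chr17:35194257-35194506.
Nfkbia: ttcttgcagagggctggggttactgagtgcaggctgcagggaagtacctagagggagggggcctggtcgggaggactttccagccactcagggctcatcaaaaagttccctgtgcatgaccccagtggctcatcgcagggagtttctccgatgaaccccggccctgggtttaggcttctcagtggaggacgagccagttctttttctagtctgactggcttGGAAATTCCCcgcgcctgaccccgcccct
Tnfaip3: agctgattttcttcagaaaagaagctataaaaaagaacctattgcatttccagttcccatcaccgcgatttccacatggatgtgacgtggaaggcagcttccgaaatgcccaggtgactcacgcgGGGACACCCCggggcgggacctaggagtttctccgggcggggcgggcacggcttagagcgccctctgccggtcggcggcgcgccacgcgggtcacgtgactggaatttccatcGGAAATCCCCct
Ltb: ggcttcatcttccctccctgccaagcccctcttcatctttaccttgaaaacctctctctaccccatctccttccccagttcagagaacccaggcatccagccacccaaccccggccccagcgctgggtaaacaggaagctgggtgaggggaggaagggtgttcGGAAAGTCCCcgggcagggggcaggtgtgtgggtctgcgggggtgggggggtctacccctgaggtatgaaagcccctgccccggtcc
The match of Nfkbia, GGAAATTCCC, spans bases 29 to 20 before the start. Tnfaip3 had GGGACACCCC at bases 125 to 116 and GGAAATCCCC at bases 12 to 3 before the start, and Ltb had GGAAAGTCCC at bases 87 to 78. These matches describe the letters of the windows, and binding was not measured.

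Across all arrays the median signal lay between 4.37 and 4.56. The probe set of the targeted gene Tlr2 read 4.37 to 4.65 in untreated wild-type and 4.49 to 4.65 in treated wild-type arrays, against 4.36 to 5.02 and 5.28 to 6.18 in untreated and treated knockout arrays. Whether it lies within the disrupted sequence was not established, so it checks neither genotype nor label. Intestinal epithelium in the tissue was borne out by 10 genes listed for jejunal epithelium. Their mean per array was 11.3 to 11.7 in the untreated groups and treated wild-type mice, and 7.60 to 9.05 in treated knockout mice. These means do not check the part of the intestine, as no other part was measured. RNA of pancreatic acinar cells was high in 7 of the 12 arrays, with a mean over 10 genes of 12.1 to 12.6, against 4.18 to 5.94 in the other 5. The 7 arrays were 2 untreated wild type, 1 treated wild type, 2 untreated knockout and 2 treated knockout.

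In wild-type mice methotrexate changed none of the 10 genes by limma's test (adjusted p from 0.337 to 0.992). The background was 0.0744%, 14 of 18820 genes. Among the members 1 had an unadjusted p under 0.05, beside 11.7% of all genes, and 1 was called with array weights, beside 9.67%, in both cases Nfkbia. In knockout mice 6 of 10 rose after methotrexate and none fell. They are the cytokine gene Tnf, the receptor genes Tnfrsf1a, Tnfrsf1b and Tnfrsf12a and the inhibitor genes Tnfaip3 and Nfkbia. Over all genes 34.8% were called in knockout mice, 18.8% higher and 16% lower. Treated and untreated knockout mice did not overlap for 6 members on the higher side (23% of all genes) and 1 on the lower (21.6%). The 6 were the called genes with Lta in place of Tnfaip3, and the 1 was Relb. The median change of the 10 members was 0.65, beside -0.02 for all genes, and in wild-type mice it was 0.03 beside 0.00. In a bulk sample, a higher signal from more cells of a type and from more RNA per cell cannot be told apart.

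**Figure D1:**
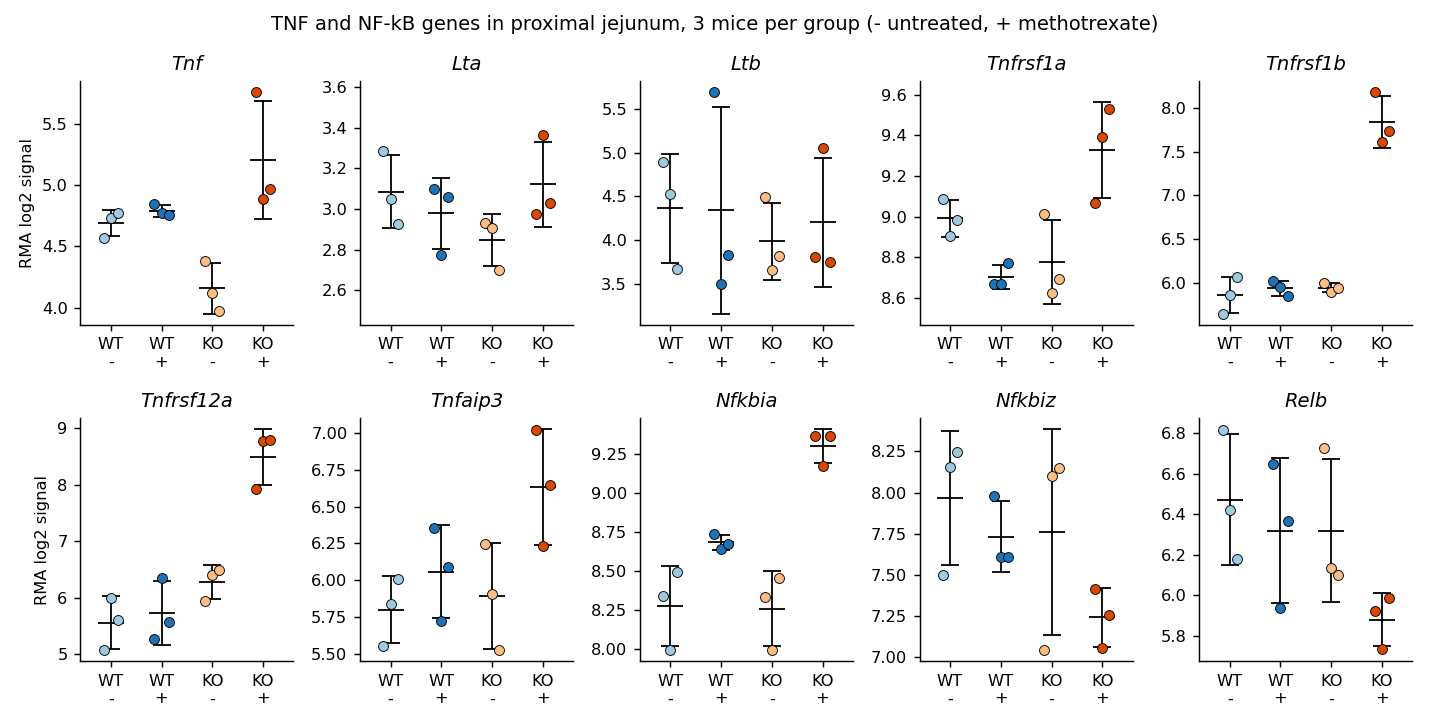
RMA log2 signal (y axis) of the 10 TNF and NF-kB genes in each mouse, by genotype and treatment (x axis; WT wild type, KO TLR2 knockout, - untreated, + methotrexate); points are mice, bars are the mean and SD of 3 mice, and y axes differ between genes. The 3 treated knockout mice lie above all others for Tnf, Tnfrsf1b, Tnfrsf12a and Nfkbia, and Ltb is spread widely within groups.

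Of the ligands, Tnf was low in the untreated knockout and highest in the treated knockout. Its signal was 4.56, 4.73 and 4.77 in untreated and 4.84, 4.77 and 4.76 in treated wild-type mice, and 4.38, 4.12 and 3.97 in untreated and 5.76, 4.89 and 4.96 in treated knockout mice. All 3 treated knockout mice were above the other 9, and replicate 1 of that group stood highest. Tnf rose by 1.04 ± 0.20 (limma's standard error here and below; adjusted p = 0.00169) in knockout mice, a 2.06-fold change, and its change in wild-type mice was 0.10 ± 0.20 (adjusted p = 0.858). The 3 untreated knockout mice lay below the 3 untreated wild-type mice, by 0.53 ± 0.20, which did not pass limma's test (unadjusted p = 0.0224, adjusted p = 0.786). That contrast called 2 of 18820 genes, 0.0106%, while 6.19% had an unadjusted p under 0.05 and 5.63% had knockout arrays wholly below wild-type ones. After methotrexate the knockout exceeded the wild type by 0.41 ± 0.20, which was not called either (adjusted p = 0.140), although the mice did not overlap.

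Lta, the gene of lymphotoxin alpha, which is secreted as a trimer and also pairs with lymphotoxin beta on the cell surface, gave a signal below the array median on every array. It read 3.28, 3.05 and 2.93 in untreated and 3.10, 2.78 and 3.06 in treated wild-type mice. In knockout mice it read 2.93, 2.91 and 2.70 untreated and 2.97, 3.36 and 3.03 treated. The treated knockout mice thus lay just above the untreated ones, with a change of 0.28 ± 0.14 that was not called (adjusted p = 0.170), and the other group ranges overlapped. The change in wild-type mice was -0.11 (adjusted p = 0.772). With array weights the change in knockout mice was called (0.43, adjusted p = 0.00886), beside 48.4% of all genes.

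Ltb encodes lymphotoxin beta, the membrane anchor of the lymphotoxin complex. It read 4.89, 4.53 and 3.67 in untreated and 5.70, 3.49 and 3.83 in treated wild-type mice, and 4.49, 3.65 and 3.82 in untreated and 3.81, 5.05 and 3.75 in treated knockout mice. Every group overlapped every other, and the spread within groups (SD 0.44 to 1.19) exceeded every difference between group means. The methotrexate change was -0.02 ± 0.56 in wild-type mice (adjusted p = 0.992) and 0.22 ± 0.56 in knockout mice (adjusted p = 0.810). Of the 11 genes of B cells and lymphoid follicles measured, the mean per array was 4.64 to 6.57 in the 5 arrays with the highest Ltb (4.49 to 5.70) and 3.66 to 4.39 in the 7 others (Ltb 3.49 to 3.83). The same 5 arrays were thus highest in both. Among the 7 arrays with low Ltb the Pearson correlation was 0.17, and in all 4 groups the mouse with the highest Ltb had the highest B cell mean. The mean of the T cell list was also highest in that mouse in all 4 groups, while 3 of the 5 arrays with the highest Ltb were among its 5 highest. This comparison was chosen after the values were seen and is a description.

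**Figure D2:**
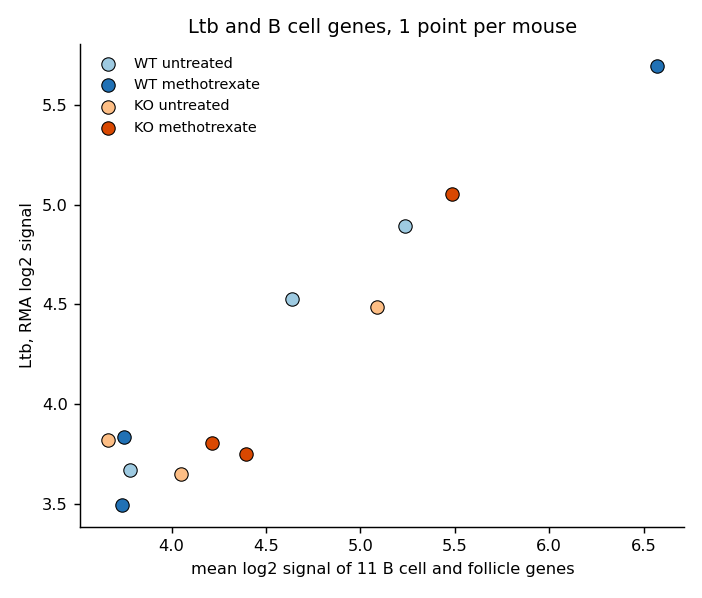
Ltb signal (y axis, RMA log2) against the mean log2 signal of 11 B cell and lymphoid follicle genes (x axis), 1 point per mouse coloured by group. The 5 mice with Ltb of 4.49 to 5.70 come from all 4 groups and are the 5 with the highest B cell mean.

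All 3 receptor genes were higher in treated knockout mice. Tnfrsf1b encodes TNFR2, which lacks a death domain and is induced on activated leukocytes and endothelium. It read 5.66, 5.87 and 6.07 in untreated wild-type, 6.03, 5.96 and 5.86 in treated wild-type and 6.01, 5.91 and 5.95 in untreated knockout mice, and 8.18, 7.61 and 7.73 in treated knockout mice. The first 3 groups covered the same narrow range and the treated knockout lay above all of them. The rise in knockout mice was 1.88 ± 0.15 (adjusted p = 2.42e-06), or 3.69-fold, against 0.08 ± 0.15 in wild-type mice (adjusted p = 0.845).

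Tnfrsf12a encodes Fn14, the receptor of the cytokine TWEAK, known to be induced in injured tissue. Its signal was 5.06, 5.99 and 5.61 in untreated and 5.26, 6.35 and 5.57 in treated wild-type mice, and 5.94, 6.41 and 6.49 in untreated and 7.92, 8.78 and 8.79 in treated knockout mice. Treated knockout mice were again above the other 9. The rise of 2.22 ± 0.33 (adjusted p = 0.000286), or 4.65-fold, was the largest among the 10 genes, while the change in wild-type mice was 0.17 ± 0.33 (adjusted p = 0.852).

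Tnfrsf1a, the gene of TNFR1, moved less. It read 9.09, 8.90 and 8.98 in untreated and 8.67, 8.67 and 8.77 in treated wild-type mice, and 9.01, 8.62 and 8.69 in untreated and 9.07, 9.39 and 9.53 in treated knockout mice. In wild-type mice all treated values were below all untreated ones, by 0.29 ± 0.14, which was not called (adjusted p = 0.441). In that contrast 9.18% of genes had treated arrays wholly below untreated ones. In knockout mice the treated values were wholly above, by 0.55 ± 0.14 (adjusted p = 0.00824). A fit of the 2 knockout groups alone ended that call (adjusted p = 0.0504).

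**Figure D3:**
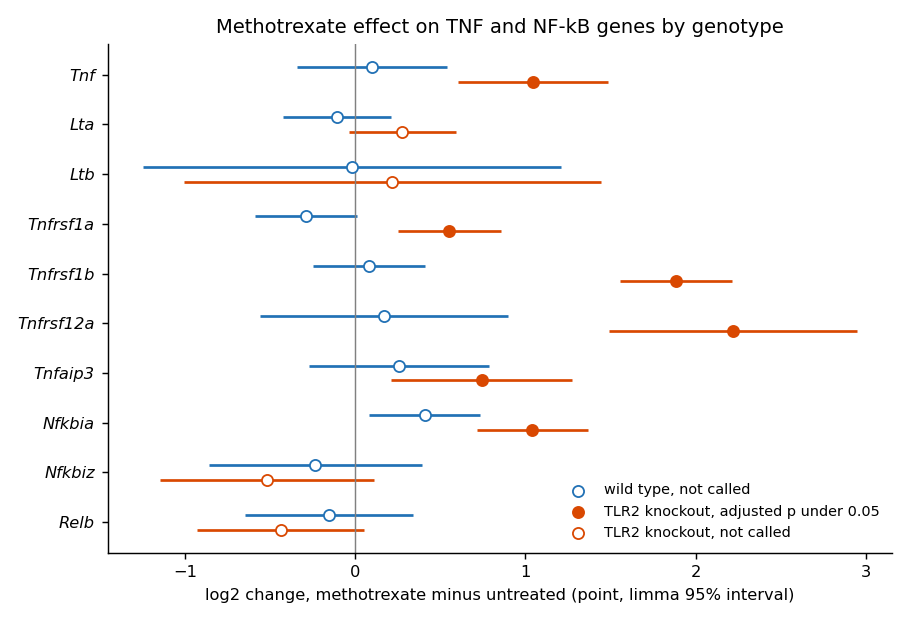
Change in log2 signal after methotrexate (x axis) for each of the 10 genes (y axis) in wild-type and TLR2 knockout mice; points are differences of means of 3 mice and lines are limma's 95% intervals, with filled points for adjusted p under 0.05. The intervals of Tnf, Tnfrsf1a, Tnfrsf1b and Tnfrsf12a do not overlap between genotypes, and those of Nfkbiz and Relb include 0 in both.

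Among the NF-kB regulators, both inhibitors that end signalling rose in knockout mice. Nfkbia, which encodes IkB-alpha, read 8.34, 7.99 and 8.49 in untreated wild-type and 8.33, 7.995 and 8.46 in untreated knockout mice. After methotrexate it read 8.74, 8.64 and 8.67 in wild-type and 9.37, 9.18 and 9.37 in knockout mice. The untreated groups were alike in range, treated wild-type mice lay above both, and treated knockout mice lay above those. The rise in knockout mice was 1.04 ± 0.15 (adjusted p = 0.000200). The change in wild-type mice was 0.41 ± 0.15 and was not called (unadjusted p = 0.0185, adjusted p = 0.337), though it was with array weights (0.62, adjusted p = 0.0212). In wild-type mice 13.5% of genes had treated arrays wholly above untreated ones.

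Tnfaip3 encodes A20, which removes and edits ubiquitin chains on signalling proteins. It read 5.55, 5.84 and 6.01 in untreated and 6.36, 5.73 and 6.09 in treated wild-type mice, and 6.25, 5.91 and 5.52 in untreated and 7.02, 6.23 and 6.65 in treated knockout mice. The lowest treated knockout value fell just below the highest untreated one, so the groups touched. The rise in knockout mice was 0.74 ± 0.24 (adjusted p = 0.0332), and the change in wild-type mice was 0.26 ± 0.24 (adjusted p = 0.672). The call in knockout mice was fragile to single arrays. Leaving out untreated knockout replicate 2 or 3 raised the adjusted p to 0.0757 or 0.131, and leaving out treated knockout replicate 1 or 3 to 0.114 or 0.0712, while a fit of the knockout groups alone gave 0.0767.

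Nfkbiz and Relb were not called in either genotype, with changes in wild-type mice of -0.23 and -0.15 (adjusted p = 0.751 and 0.794). Nfkbiz encodes IkB-zeta, a nuclear IkB protein that switches on a subset of NF-kB targets. It read 7.50, 8.15 and 8.25 in untreated and 7.98, 7.61 and 7.61 in treated wild-type mice, and 7.04, 8.10 and 8.15 in untreated and 7.42, 7.06 and 7.26 in treated knockout mice. Replicate 1 of the untreated knockout stood apart from its group at the level of the treated mice. The change in knockout mice was -0.52 ± 0.29 (adjusted p = 0.195), and without that replicate it was -0.88 and called (adjusted p = 0.0101). With array weights it was also called (-0.88, adjusted p = 0.00236). That mouse had no pancreatic RNA. Replicate 1 of the untreated wild type, the lowest of its group at 7.50, had none either, and both other mice of that group did. Leaving out the untreated knockout replicate 1 thus left only arrays with pancreatic RNA in its group, while the treated knockout still included 1 without it. The change was 0.37 between the untreated and treated knockout arrays without pancreatic RNA, 1 each, and -0.97 between those with it, 2 each. Whether pancreatic RNA has a part in this was not tested beyond these values.

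Relb encodes a subunit of the non-canonical NF-kB pathway, which lymphotoxin beta receptor and related receptors activate. It read 6.82, 6.42 and 6.18 in untreated and 6.65, 5.94 and 6.37 in treated wild-type mice, and 6.72, 6.14 and 6.10 in untreated and 5.92, 5.73 and 5.99 in treated knockout mice. The treated knockout mice were the lowest group and did not overlap the untreated knockout, with a change of -0.44 ± 0.22 that was not called (adjusted p = 0.163). With arrays holding pancreatic RNA as a block the same change was called (adjusted p = 0.0336).

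The methotrexate effect differed between genotypes for 5 of the 10 genes by limma's interaction term, all with the larger effect in knockout mice. Over all genes 23.8% were called for this term, 11.8% higher and 12% lower. The difference was 2.05 ± 0.47 for Tnfrsf12a (adjusted p = 0.00747), 1.80 ± 0.21 for Tnfrsf1b (adjusted p = 9.56e-05) and 0.84 ± 0.19 for Tnfrsf1a (adjusted p = 0.00774). These 3 receptor genes kept the call in all 21 refits, and Tnfrsf1a alone of them lost it where a log2 change of 1 was required. For Tnf it was 0.95 ± 0.28 (adjusted p = 0.0314), and leaving out any one of 7 arrays ended the call (adjusted p from 0.0538 to 0.0758). They were replicates 2 and 3 of the untreated wild type, all 3 of the treated wild type and replicates 2 and 3 of the untreated knockout. For Nfkbia it was 0.63 ± 0.21 (adjusted p = 0.0491), called in 9 of 21 refits, and lost without any one of 10 arrays, the exceptions being replicate 2 of the untreated wild type and replicate 3 of the untreated knockout. The term for Tnfaip3 was 0.48 ± 0.34 (adjusted p = 0.380), and those for Lta, Ltb, Nfkbiz and Relb were 0.38, 0.24, -0.29 and -0.28, with adjusted p from 0.221 to 0.883.

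Between the genotypes after methotrexate, 4 of the 10 genes were higher in knockout mice and none lower. The background was 36.9%, 20.2% higher and 16.8% lower. Tnfrsf12a was higher by 2.77 ± 0.33 (adjusted p = 4.44e-05), Tnfrsf1b by 1.89 ± 0.15 (adjusted p = 1.89e-06), Tnfrsf1a by 0.63 ± 0.14 (adjusted p = 0.00344) and Nfkbia by 0.62 ± 0.15 (adjusted p = 0.00614). All 4 were called in every refit; requiring a log2 change of 1 left only Tnfrsf1b and Tnfrsf12a. The mice of the genotypes did not overlap for these 4 and Tnf on the higher side (24.2% of all genes) and for Nfkbiz on the lower (22%). This comparison shares the treated knockout arrays with that of methotrexate in knockout mice, and both share arrays with the interaction. Tnfaip3 was 0.58 ± 0.24 apart (adjusted p = 0.0868). The differences of Lta, Ltb, Nfkbiz and Relb were 0.14, -0.14, -0.49 and -0.44, with adjusted p from 0.162 to 0.893. With array weights Nfkbiz (-0.64, adjusted p = 0.01965) and Relb (-0.59, adjusted p = 0.0127) were called lower, beside 47.6% of all genes called in either direction. Nfkbiz was also called lower where only the treated groups were fitted (adjusted p = 0.0471). Between untreated mice none of the 10 genes was called by limma (adjusted p from 0.786 to 0.989), 1 had an unadjusted p under 0.05 and 1 was called with array weights (2.96% of all genes), in both cases Tnf. The other differences, knockout minus wild type, were 0.72 for Tnfrsf12a, 0.09 for Tnfrsf1b and for Tnfaip3, and -0.01 for Nfkbia. Those of Relb, Nfkbiz, Tnfrsf1a, Lta and Ltb ran from -0.15 to -0.38.

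Marker lists of cell types moved with the rises in treated knockout mice. Over all genes 18.8% were called higher and 16% lower in knockout mice after methotrexate. All 12 macrophage and monocyte genes rose in knockout mice after methotrexate, with an array mean of 8.10 to 8.44 in treated against 6.16 to 6.42 in untreated mice. In treated wild-type mice that mean was 5.49 to 6.21, below the 6.36 to 6.49 of untreated ones, and 9 of the 12 genes were called lower there with array weights but not with equal weights; the weights raised the share of all genes called from 0.0744% to 9.67%. All 8 fibroblast genes rose, from an array mean of 6.78 to 7.09 to one of 9.02 to 9.13, and 6 of 7 endothelial genes, from 6.35 to 6.44 to 7.45 to 7.65. All 10 epithelial genes fell. Of 9 neutrophil genes 4 rose, with array means of 4.06 to 6.47 against 3.12 to 3.19 in untreated knockout mice. Treated and untreated knockout mice did not overlap for 7 of the 9 on the higher side, beside 23% of all genes. The spread differed by gene: S100a8 read 6.88, 3.20 and 3.16 in the treated mice, and Mmp8 read 7.51, 7.02 and 6.90. Replicate 1 of the treated knockout, with the highest neutrophil mean, was also the highest of its group for Tnf, Tnfrsf1b, Tnfaip3, Nfkbiz and, narrowly, Nfkbia. It was the lowest for Lta, Tnfrsf1a and Tnfrsf12a. Of 12 genes in the T cell and intraepithelial lymphocyte list, 8 fell and 1 rose, with array means of 4.10 to 4.44 against 5.59 to 5.69. The 1 was Cd4, whose call was lost in 11 of 12 fits without a single array. Array means of this list were also lower in treated than untreated wild-type mice, 4.99 to 5.49 against 6.20 to 6.52. There 3 of the 12 genes were called lower, or 0 to 7 without 1 array, beside 0.0744% of all genes. Untreated knockout means also lay below those of untreated wild-type mice. For the interaction 2 genes were called lower and 1 higher, beside 12% and 11.8% of all genes. The part of these shifts in the changes of the 10 genes was not tested.

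Pancreatic RNA was present in some mice of every group, so the changes could be set out with and without it. In knockout mice all 10 genes changed in the same direction as overall among the arrays with it, and 8 of 10 among those without it, the exceptions being Ltb and Nfkbiz. Tnfrsf1b changed by 1.74 with and 2.17 without it, Tnfrsf12a by 2.33 and 1.99 and Nfkbia by 1.05 and 1.03. Tnfaip3 changed by 0.73 and 0.77 and Tnf by 0.88 and 1.38. Tnfrsf1a changed by 0.80 with pancreatic RNA and by 0.05 without it. Tnf was higher in knockout than in wild-type mice after methotrexate by 0.16 with and 0.96 without it. These values come from 1 or 2 mice per group and have no test.

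**Figure D4:**
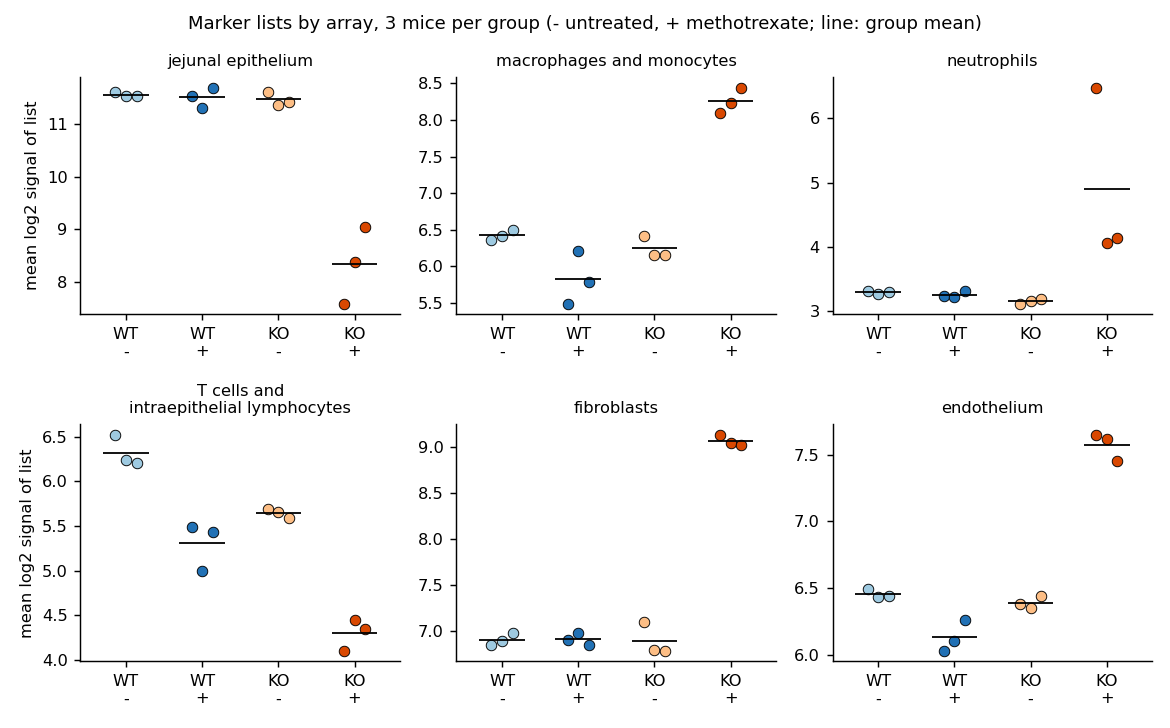
Mean log2 signal of 6 marker lists (y axis) in each mouse by genotype and treatment (x axis; - untreated, + methotrexate), with a line at the mean of 3 mice. Treated knockout mice stand apart with epithelial means of 7.60 to 9.05, macrophage means of 8.10 to 8.44 and fibroblast means of 9.02 to 9.13.

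Other genes of the pathway were followed through 6 lists, of which 105 genes were measured. By limma 0 of the 105 were called in wild-type mice after methotrexate, 11 (10.5%) had an unadjusted p under 0.05, near the 11.7% of all genes, and 8 were called with array weights, where 9.67% of all genes were. Of 25 NF-kB target genes, 15 rose and 2 fell in knockout mice, beside 18.8% and 16% of all genes. Their median change was 1.11, beside -0.02 for all genes. The smallest p-values were those of Lcn2, an iron-sequestering protein (5.79 ± 0.21, adjusted p = 1.29e-08), the leukocyte adhesion gene Vcam1 (2.36 ± 0.13, adjusted p = 1.67e-07) and Tnfaip2 (2.13 ± 0.14, adjusted p = 6.27e-07). Vcam1 read 5.38, 5.26 and 5.49 in untreated and 5.37, 5.16 and 5.12 in treated wild-type mice, and 5.42, 5.12 and 5.15 in untreated and 7.79, 7.56 and 7.41 in treated knockout mice, so that the treated knockout mice stood alone. The 2 that fell, named after their values were seen, were Irf1, an interferon-induced transcription factor (-1.46 ± 0.24, adjusted p = 0.000551), and Ccl5, a chemokine made by T cells among others (-1.46 ± 0.39, adjusted p = 0.0120). Ccl5 had a change of -1.85 ± 0.39 in wild-type mice that was not called (adjusted p = 0.124). Irf1 had 2 probe sets, of which the one with the higher mean is given. In a fit of the knockout groups alone, 1 of the 25 was called lower. For the interaction 13 of the 25 were higher and 1 lower, beside 11.8% and 12% of all genes. Mmp9, a gelatinase, had a difference of 3.47 ± 0.29 (adjusted p = 1.02e-05).

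**Figure D5:**
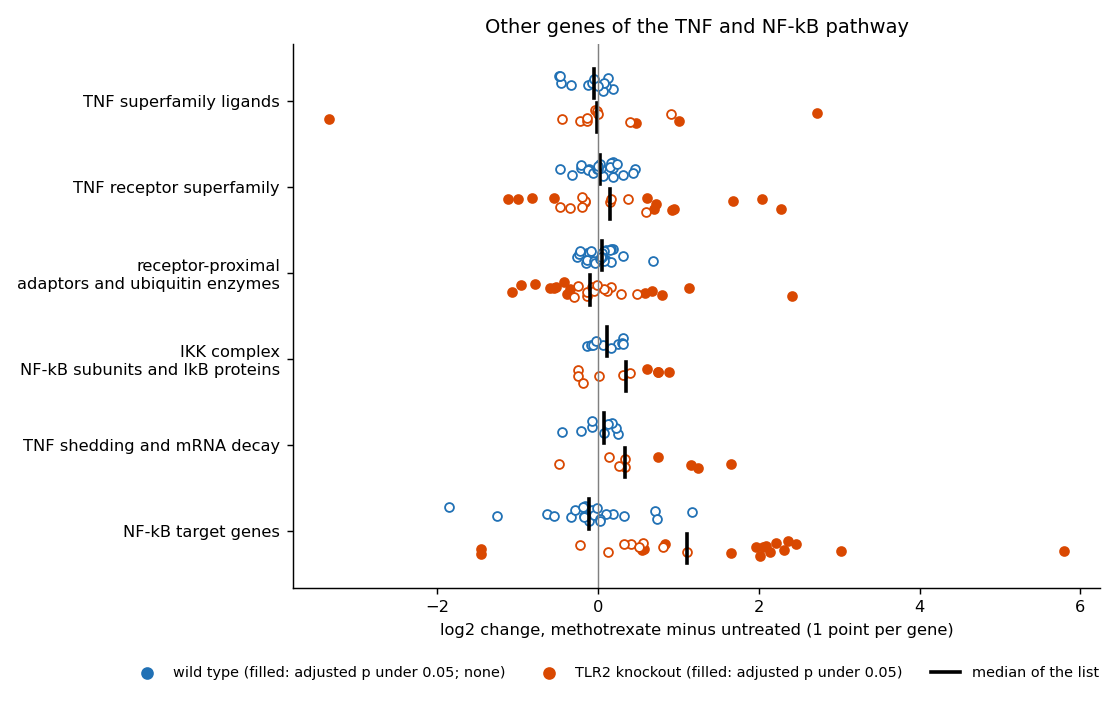
Change in log2 signal after methotrexate (x axis, 1 point per gene) for the 105 measured genes of 6 pathway lists (y axis) in wild-type and TLR2 knockout mice; filled points have an adjusted p under 0.05 and bars are list medians. No wild-type point is filled, and the NF-kB targets in knockout mice have a median of 1.11.

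Among 26 receptor-proximal adaptors and ubiquitin enzymes, 5 rose and 9 fell in knockout mice, beside 18.8% and 16% of all genes. Their median change was -0.11. Tnip3, which encodes an A20-binding inhibitor of NF-kB, rose by 2.41 ± 0.14 (adjusted p = 2.39e-07), from 2.85, 3.01 and 2.82 to 5.25, 5.10 and 5.57. Its relative Tnip2 rose by 1.13 ± 0.18 (adjusted p = 0.000481). Tradd, the death domain adaptor that TNFR1 recruits, fell by 1.07 ± 0.19 (adjusted p = 0.00108), from 7.98, 7.61 and 7.37 to 6.75, 6.20 and 6.81. Tnip1, another of these A20-binding genes, fell by 0.59 ± 0.12 in knockout mice (adjusted p = 0.00184). The 3 related genes thus did not move one way. Between genotypes after methotrexate 4 of the 26 were higher and 9 lower in knockout mice, beside 20.2% and 16.8% of all genes. The 4 became 2 without replicate 1 or 2 of the treated wild type or replicate 2 of the treated knockout.

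Of 10 genes of the IKK complex, NF-kB subunits and IkB proteins, 4 rose and none fell in knockout mice. The shares of all genes were 18.8% and 16%. The median of the 10 was 0.35, and 2 rose without replicate 2 of the untreated knockout. The kinase gene Ikbkb rose by 0.60 ± 0.12 (adjusted p = 0.00231), Rela, the main activating subunit, by 0.75 ± 0.17 (adjusted p = 0.00508) and Rel by 0.88 ± 0.24 (adjusted p = 0.0131). Leaving out untreated knockout replicate 2 ended the call of Rel (adjusted p = 0.0597). Only Rela was called for the interaction (0.78 ± 0.24, adjusted p = 0.0367), beside 11.8% of all genes called higher. It kept that call in 12 of 21 refits.

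Of 9 genes acting on TNF release or mRNA decay, 4 rose and none fell in knockout mice, beside 18.8% and 16% of all genes. Their median change was 0.34. With the replicate number as a block Zfp36, named after its value was seen, was called lower (-0.48, adjusted p = 0.0255). Timp3, which inhibits the protease that sheds TNF, rose by 1.65 ± 0.14 (adjusted p = 3.76e-06). Zfp36l1, which encodes a protein that destabilises AU-rich mRNAs, rose by 1.15 ± 0.13 (adjusted p = 2.71e-05). Rhbdf2, a partner of the shedding protease, rose by 0.75 ± 0.12 (adjusted p = 0.000570), and its relative Rhbdf1 was higher in knockout than in wild-type mice after methotrexate by 1.58 ± 0.33 (adjusted p = 0.00274).

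Of 13 other ligands of the TNF superfamily 3 rose and 1 fell in knockout mice, beside 18.8% and 16% of all genes. Their median change was -0.01, and 1 rose when dim genes were left out. Tnfsf11, the gene of RANKL, which acts on bone and on the epithelium over lymphoid follicles, read 4.17, 4.35 and 3.96 in untreated and 6.51, 7.19 and 6.94 in treated knockout mice, a rise of 2.72 ± 0.19 (adjusted p = 1.12e-06). Tnfsf9 rose by 1.003 ± 0.12 (adjusted p = 4.44e-05). Its signal, at most 4.04, was below the array median on every array, and the filter on dim genes removed it. Tnfsf10, the gene of the death ligand TRAIL, fell by 3.34 ± 0.45 (adjusted p = 0.000134), from 8.86, 7.72 and 7.67 to 5.53, 4.61 and 4.08. Of 22 other receptors of the family 8 rose and 4 fell, beside the same shares of all genes. Their median change was 0.15, and 2 fell without replicate 2 of the untreated knockout or replicate 3 of the treated knockout. Tnfrsf11b, the gene of the decoy receptor of RANKL, rose by 2.28 ± 0.19 (adjusted p = 3.29e-06), Tnfrsf9, the receptor of the Tnfsf9 product, by 2.04 ± 0.19 (adjusted p = 6.82e-06) and Eda2r by 1.68 ± 0.18 (adjusted p = 2.39e-05). Ligand and receptor genes of both pairs, Tnfsf11 with Tnfrsf11b and Tnfsf9 with Tnfrsf9, were among those that rose. These pairs were put together from genes named for their small p-values and do not describe the other ligands and receptors.

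The genes whose profile over the 12 arrays was most like each member's were found by Pearson correlation, as a description. They were Tlr1 for Tnf (0.92), Slc25a53 for Lta (0.93), Fcmr for Ltb (0.99), Ablim3 for Tnfrsf1a (0.97), Saa3 for Tnfrsf1b (0.99), Cyp20a1 for Tnfrsf12a (0.99), Nfkb2 for Tnfaip3 (0.93), Mapkapk2 for Nfkbia (0.96), Fth1 for Nfkbiz (0.97) and Vwa1 for Relb (0.96). These correlations take in differences between groups as well as spread within them, and these parts were not separated. For Ltb the spread within groups exceeded every difference between group means. Among the members themselves, the closest pairs were Tnfrsf1b with Tnfrsf12a (0.90), Tnfrsf1b with Nfkbia (0.87) and Tnfrsf1b with Tnfaip3 (0.81).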

How the data were processed

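The authors deposited log2 signals per probe set; the submitters' processing notes name RMA without a version, and neither the design's annotation nor its genome build is stated in the sources used here. Labelling of total RNA covered whole transcripts, per the labels' protocols. Of 35556 probe sets, 21218 carried 1 symbol, 1881 several and 12457 none. Each gene was represented by its single-symbol probe set with the highest mean, which left 18820 genes. Limma 3.58.1 in R 4.3.3 fitted all 12 arrays with a mean per group (lmFit, eBayes; 8 residual degrees of freedom) and Benjamini-Hochberg adjustment over all genes; it was tested on simulated data. Arrays give no depth, and their number limits the precision. Values after ± are limma's standard errors, always with 3 mice per group. The members and lists were chosen with earlier results of these data known. Members are named whatever their values. Pathway genes are named where they are among the 3 of smallest p called in their list in any comparison, though not all of these are described. Arrays with an acinar mean above 8 were counted as holding pancreatic RNA. Same-numbered arrays were compared by their deviations from group means. All 3 pairs correlated above 0.1 between untreated and treated knockout (r 0.289 to 0.502) and between untreated genotypes (0.495 to 0.671). This likeness comes from the data and not the labels. Pairs with treated wild type ranged from -0.49 to 0.53. The fits reported above were unpaired in every comparison. The replicate number entered only as a block in an alternative fit of all 12 arrays. Pancreatic RNA was in no replicate 1, every replicate 2 and every replicate 3 except treated wild type, so it moves with the number. Settings varied were a fold minimum, the filter on dim genes, the choice of probe sets, normalisation, the arrays fitted, the replicate number or pancreatic RNA as a block, the variance model, array weights and each array left out.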

Additional observations from a re-analysis of the deposited data

Results flagged for a closer look

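The methotrexate effect differed between knockout and wild-type mice by limma's interaction term for 5 of the 10 genes. Knockout minus wild type, it was 0.95 for Tnf, 0.84 for Tnfrsf1a, 1.80 for Tnfrsf1b, 2.05 for Tnfrsf12a and 0.63 for Nfkbia on the log2 scale, with adjusted p-values of 0.0314, 0.00774, 9.56e-05, 0.00747 and 0.0491. Over all genes 11.8% were called higher and 12% lower for this term. The call was kept in 14 of 21 refits for Tnf and in 9 of 21 for Nfkbia. Leaving out any 1 array left 3 to 4 members called. For Tnf the untreated knockout started 0.53 lower and the treated knockout ended 0.41 higher than the wild type, and neither difference was called on its own (adjusted p = 0.786 and 0.140).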

How the results depend on the processing

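Counts of members called were 0, 6, 0, 4 and 5 for methotrexate in wild type, methotrexate in knockout, untreated genotypes, treated genotypes and the interaction. The shares of all genes called were 0.0744%, 34.8%, 0.0106%, 36.9% and 23.8%. With array weights the counts of members in wild type and between untreated genotypes became 1 and 1. The weights also called Lta higher and Nfkbiz lower in knockout after methotrexate, and Nfkbiz and Relb lower between treated genotypes. For the interaction they called Lta higher (0.46, adjusted p = 0.0342) and ended the call of Nfkbia (adjusted p = 0.119). Shares of all genes called with weights in these 3 comparisons were 48.4%, 47.6% and 39.7%. Requiring a log2 change of 1 left 2 in treated genotypes and 2 in the interaction. For methotrexate in knockout it removed Tnfrsf1a and Tnfaip3, with changes of 0.55 and 0.74. Leaving out 1 array gave 0 to 0, 5 to 7, 0 to 0, 4 to 5 and 3 to 4. With the replicate block the counts were 0, 6, 0, 4 and 5, and it changed no call of a member; 9 of 12 arrays correlated best with an array of their own number. Some uncalled changes turned sign. With array weights the wild-type methotrexate change was 0.0439 for Ltb and -0.28 for Tnfrsf12a, the untreated genotype difference -0.0095 for Tnfaip3 and 0.0909 for Nfkbia, and the treated one 0.26 for Ltb, or 0.0477 with pancreatic RNA as a block. Quantile normalisation gave -0.0273 for Tnfrsf1b in wild type after methotrexate, and -0.0156 for Tnfrsf1b and -0.0033 for Tnfaip3 between untreated genotypes. Leaving out 1 array, the wild-type methotrexate change ranged from -0.70 to 0.40 for Ltb, -0.0245 to 0.18 for Tnfrsf1b, -0.14 to 0.40 for Tnfrsf12a and -0.32 to 0.0351 for Relb, and that of Ltb in knockout from -0.21 to 0.47. Between untreated genotypes the ranges were -0.0175 to 0.19 for Tnfrsf1b, -0.0850 to 0.28 for Tnfaip3, -0.16 to 0.12 for Nfkbia, -0.44 to 0.16 for Nfkbiz and -0.35 to 0.0192 for Relb. For Ltb they were -0.56 to 0.54 between treated genotypes and -0.19 to 0.92 for the interaction. The cause of these shifts was not tested. Settings for the pathway lists were added after seeing the data.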
